A study of Homo sapiens with 8 samples.

Results

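Integrins and the proteins that tie them to actin were examined across 8 RNA-seq samples. The set comprised every integrin alpha subunit gene (symbols beginning ITGA), the beta subunit genes ITGB1 to ITGB8 and the focal adhesion genes TLN1, TLN2, VCL, ILK, PXN, PTK2, FERMT1, FERMT2, PARVA, PARVB, ZYX, LIMS1 and BCAR1, taken by symbol. This gave 39 genes of the 63816 gene entries in the table: 18 alpha subunits, 8 beta subunits and 13 focal adhesion genes. ZYX and BCAR1 each stood on 2 entries, and the entry with the higher mean was used. The samples were labelled as Caco-2, an established human colorectal adenocarcinoma line, stably transfected with pcDNA3.1. In 4 samples the vector was empty (control) and in 4 it carried SIGLEC12, which encodes Siglec-XII, a cell surface protein of the Siglec family of immunoglobulin-type lectins whose human form has lost the ability to bind sialic acid. Both groups went through the same G418 selection, so vector and drug were common to all 8 samples. The series text describes stable clones and names fewer cultures for each condition than there are samples, and the study's methods describe libraries made as technical replicates. The p-values below therefore measure the spread between these samples, which may be technical. Each group came from its own transfected population, and what Siglec-XII did and what set the populations apart in other ways cannot be told apart.

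Integrins are heterodimers of an alpha and a beta subunit that bind extracellular matrix or counter-receptors on other cells, and the pair of subunits sets the ligand. Inside the cell, talin and kindlin bind the beta subunit tail and activate the receptor, while vinculin, the ILK, PINCH and parvin complex and zyxin connect it to actin, and paxillin, focal adhesion kinase and p130Cas carry the signal onward. In gut epithelium, laminin-binding and collagen-binding integrins hold cells on the basement membrane, and integrins of blood cells serve leukocyte adhesion and platelet aggregation.

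Values are TPM (transcripts per 1000000 transcripts), which are scaled per transcript length, and fold changes are differences of group means of log2(TPM + 1), Siglec-XII minus empty vector. Such a fold change understates the change of a gene near or below 1 TPM. Between 15513 and 15934 entries reached 1 TPM in a sample, and correlations across genes between samples of a group were 0.979 to 0.984. The labels give about 25000000 to 40000000 reads of 100 bp per library, but the table holds no read counts, so the depth behind each value is unknown. The transfected gene matched the labels, with SIGLEC12 at 0.0399 to 0.122 TPM in the empty vector samples and 1580 to 1730 TPM in the Siglec-XII samples (two-sided exact permutation p = 0.0286, the smallest p that 70 labellings allow). The labelled tissue was less clear. Of 15 colon epithelium markers, 2 passed the filter on low values (at least 1 TPM in at least 4 samples), namely CDX1 at 128 to 165 TPM and CDX2 at 34.0 to 48.8 TPM, whereas KRT20, FABP1 and PHGR1 were listed at 0 in every sample and the brush border gene VIL1 reached at most 1.30 TPM. All 9 general epithelial markers passed. So did 16 of 18 genes of a list typical of trophoblast, with XAGE3 at 1110 to 1230 TPM and GATA3 at 331 to 479 TPM. That list went both ways, since CGB5 and GCM1 did not pass, at no more than 0.128 and 0.846 TPM. Its hormone, PSG and syncytin genes that passed were near the filter, at most 1.35 TPM for CGA, 2.42 for PSG1, 2.23 for PSG3, 1.59 for ERVW-1 and 2.48 for ERVFRD-1. Of 11 fibroblast genes, 6 passed, among them COL1A1 at 41.9 to 59.1 TPM, while THY1 was at 0. Of 11 leukocyte and platelet genes, 3 passed, none above 2.91 TPM, and PF4, PPBP and GP9 were at 0. The samples are therefore called by their labels here, and the integrin levels below are those of cells that lack most colon markers.

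Promoter sequence was available from RefSeq (GRCh38.p14, 250 bases before to 50 bases after the start) for 27 of the 39 genes. The promoters of the 20 of these genes whose RNA passed the filter had a median GC content of 70.5%, the 7 that did not pass had 69.3%, and all 35116 promoters of the table had 58.7%. Searched on both strands, GGGCGG occurred in 16 of the 27 (45% of all promoters), TGANTCA in 2 (BCAR1 and ITGA5, against 7.71%), TATAAA in 1 (ITGA6, against 11.5%) and the SRF CArG box in 1 (ITGB6, against 1.29%). A TATAAA match can lie inside a CArG box match, but no promoter of the set held both. The promoters of ITGB6 (beta subunit that pairs only with ITGAV), LIMS1 (the adaptor PINCH) and ITGB1 (the beta subunit shared by most alpha subunits) are shown because ITGB6 and LIMS1 were the 2 genes whose groups did not overlap and ITGB1 was the beta subunit with the highest level. Capitals mark matches to the 4 motifs. ITGB6 is read from the minus strand at chr2:160200223-160200522, LIMS1 from the plus strand at chr2:108534220-108534519 and ITGB1 from the minus strand at chr10:32958181-32958480.
ITGB6: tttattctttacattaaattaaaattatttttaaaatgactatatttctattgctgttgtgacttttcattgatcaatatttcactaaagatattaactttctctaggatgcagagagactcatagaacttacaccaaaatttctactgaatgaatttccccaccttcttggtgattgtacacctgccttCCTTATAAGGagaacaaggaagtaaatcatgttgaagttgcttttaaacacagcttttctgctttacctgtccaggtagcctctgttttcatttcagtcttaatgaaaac
LIMS1: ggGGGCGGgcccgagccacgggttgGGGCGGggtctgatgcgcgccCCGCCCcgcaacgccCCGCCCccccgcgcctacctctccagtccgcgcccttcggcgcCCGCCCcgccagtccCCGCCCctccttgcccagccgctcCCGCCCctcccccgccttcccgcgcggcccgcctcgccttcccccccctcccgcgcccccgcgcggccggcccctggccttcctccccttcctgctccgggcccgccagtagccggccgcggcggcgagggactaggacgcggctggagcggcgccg
ITGB1: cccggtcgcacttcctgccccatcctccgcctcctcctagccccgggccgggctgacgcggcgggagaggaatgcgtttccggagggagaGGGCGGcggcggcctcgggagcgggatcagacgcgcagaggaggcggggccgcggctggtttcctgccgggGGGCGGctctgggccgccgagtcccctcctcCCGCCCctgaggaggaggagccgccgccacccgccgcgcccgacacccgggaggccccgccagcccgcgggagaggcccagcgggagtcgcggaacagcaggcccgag
The ITGB6 promoter stood apart from the other 2 in composition, with 31.7% GC and no CpG, against 83.3% GC in LIMS1 and 78.3% in ITGB1, and 31.7% was the lowest of the 20 genes that passed the filter. Its CArG box began at an offset of -60 bases from the start. LIMS1 held 7 matches to GGGCGG and ITGB1 held 3. These are matches of letters, and no binding was measured.

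Of the 39 genes, 28 passed the filter on low values: 10 of 18 alpha subunits, 5 of 8 beta subunits and 13 of 13 focal adhesion genes. Of the 28, 26 reached 1 TPM in all 8 samples, and 0 passed through 1 group alone. The other 11 stayed at or below 1.31 TPM in every sample. In bulk RNA, fewer cells that express a gene and less RNA per cell cannot be told apart, and this holds for every level given here.

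**Figure D1:**
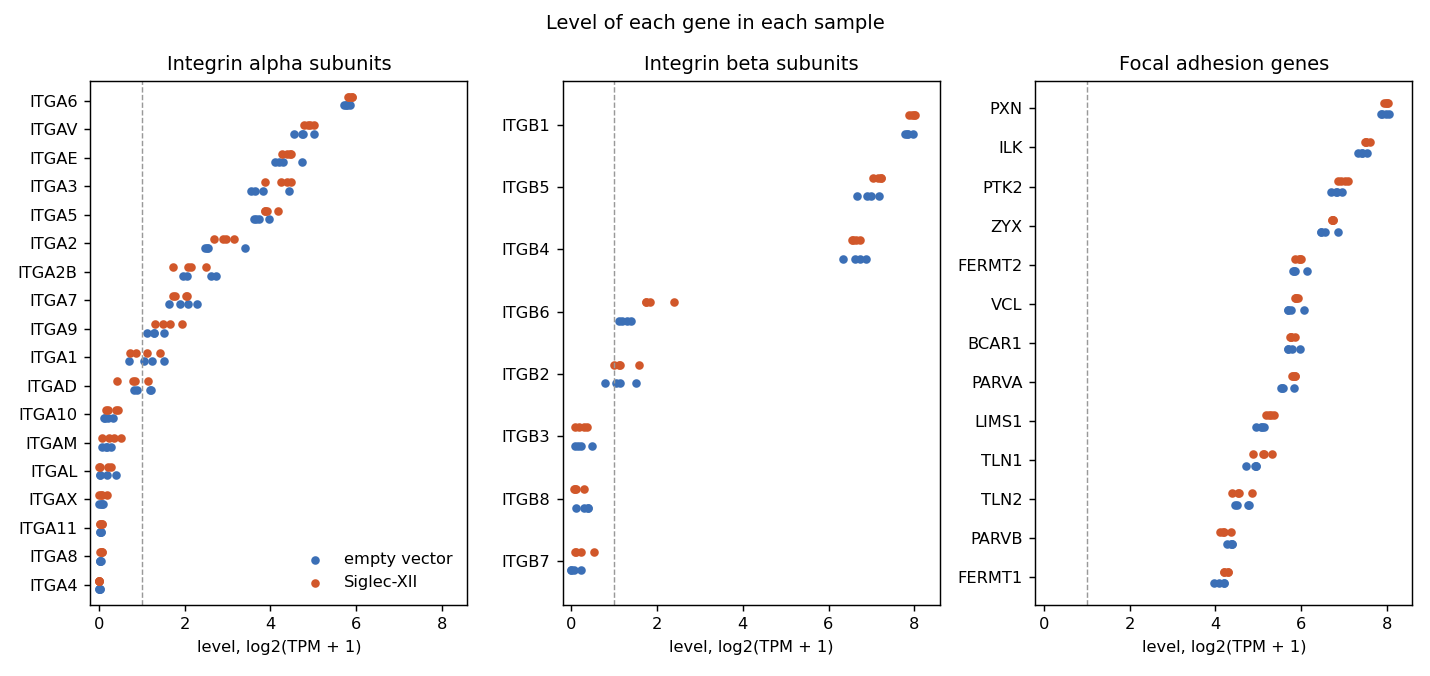
Level of all 39 genes as log2(TPM + 1) in each of the 4 empty vector (blue) and 4 Siglec-XII (orange) samples, ordered by mean within alpha subunits, beta subunits and focal adhesion genes. The dashed line marks 1 TPM, below which most points of 11 genes lie, and all 13 focal adhesion genes lie far to the right of it.

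Among alpha subunits, the laminin receptor subunit ITGA6 was the most abundant. Its level was 51.6, 54.8, 56.7 and 53.5 TPM in empty vector replicates 1 to 4 and 59.2, 54.9, 59.1 and 56.2 TPM in Siglec-XII replicates 1 to 4. The groups overlapped, and the fold change was 0.08 ± 0.05 (SE; 95% interval -0.03 to 0.19; limma adjusted p = 0.433). ITGA6 made up 37.7% ± 2.42 of the summed alpha subunit TPM in the empty vector samples and 36.6% ± 2.42 in the Siglec-XII samples (SD, n = 4 each). ITGAV, the alpha subunit of receptors for matrix proteins with an RGD motif, followed at a mean of 27.8 TPM over all samples, at 22.4 to 31.5 TPM with the empty vector and 26.8 to 31.4 TPM with Siglec-XII. ITGAE (19.9 TPM), ITGA3 (16.2 TPM) and ITGA5 (13.6 TPM) came next. ITGAE is the intraepithelial lymphocyte receptor for E-cadherin, ITGA3 binds laminins and ITGA5 is the fibronectin receptor subunit. The ranges of ITGAE (16.3 to 25.8 TPM) and ITGA3 (10.8 to 21.3 TPM) overlapped over the samples, as did those of ITGA3 and ITGA5 (11.2 to 17.1 TPM). The place of ITGA3 in this order is therefore not beyond its spread, whereas ITGAE lay above ITGA5 within every sample.

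Lower alpha subunits were ITGA2, which binds collagen (6.28 TPM), the platelet subunit ITGA2B (3.82 TPM), the muscle laminin receptor subunit ITGA7 (2.86 TPM), ITGA9 (1.77 TPM) and the collagen-binding ITGA1 (1.17 TPM). ITGA2 ran from 4.58 to 9.55 TPM and ITGA2B from 2.33 to 5.70 TPM, so these neighbours overlapped too. The leukocyte integrin subunits ITGAL, ITGAM, ITGAX and ITGAD, which lie within 1 stretch of chromosome 16 (30483979 to 31437826 in GRCh37), had means of 0.110, 0.186, 0.0494 and 0.914 TPM and did not pass. ITGA10 (0.195 TPM), ITGA11 (0.0305 TPM), ITGA8 (0.0300 TPM) and ITGA4 (0.0032 TPM) did not pass either, and ITGA4, the lymphocyte subunit that binds VCAM1, was listed at 0 in 6 of 8 samples. ITGAD reached 1 TPM in 2 empty vector samples and 1 Siglec-XII sample and was the alpha subunit closest to the filter on its lower side.

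ITGB1 was the beta subunit with the highest level, at 227, 250, 221 and 231 TPM in empty vector replicates 1 to 4 and 259, 234, 253 and 248 TPM in Siglec-XII replicates 1 to 4. The groups overlapped, since empty vector replicate 2 lay above Siglec-XII replicates 2 and 4, and the fold change was 0.10 ± 0.05 (SE; 95% interval -0.02 to 0.21; limma adjusted p = 0.375). ITGB5, which pairs only with ITGAV, had a mean of 132 TPM, and ITGB4, the hemidesmosome subunit that pairs only with ITGA6, had 98.6 TPM. ITGB1 made up 50.9% ± 1.78 of the summed beta subunit TPM in empty vector samples and 50.3% ± 1.71 in Siglec-XII samples (SD, n = 4 each). ITGB6 (2.12 TPM) and the leukocyte subunit ITGB2 (1.26 TPM) were near the filter. The platelet and osteoclast subunit ITGB3 (0.180 TPM), ITGB8 (0.164 TPM) and the lymphocyte subunit ITGB7 (0.120 TPM) did not pass.

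Subunits that pair with each other were not present at like levels. Summed over genes, beta subunit TPM divided by alpha subunit TPM was 3.17 ± 0.176 for the empty vector samples and 3.15 ± 0.162 for the Siglec-XII samples (SD, n = 4 each). Within pairs, ITGB5 was 4.45 to 5.54 times the TPM of ITGAV and ITGB4 was 1.48 to 2.25 times that of ITGA6 over the 8 samples, although ITGAV and ITGA6 also serve other beta subunits. For some receptors of blood cells the subunits were far apart in level. ITGAE stood at 19.9 TPM with its partner ITGB7 at 0.120 TPM, and ITGA2B at 3.82 TPM with ITGB3 at 0.180 TPM. ITGB2 (0.711 to 1.98 TPM) and its alpha partner ITGAD (0.345 to 1.31 TPM) overlapped in level near the filter, while its other partners ITGAL, ITGAM and ITGAX were each at or below 0.438 TPM. ITGAE shares 427 exon bases with HASPIN on the opposite strand (11.4 TPM), and since no source used here states whether the quantification used strand, the ITGAE level may hold reads of HASPIN.

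**Figure D2:**
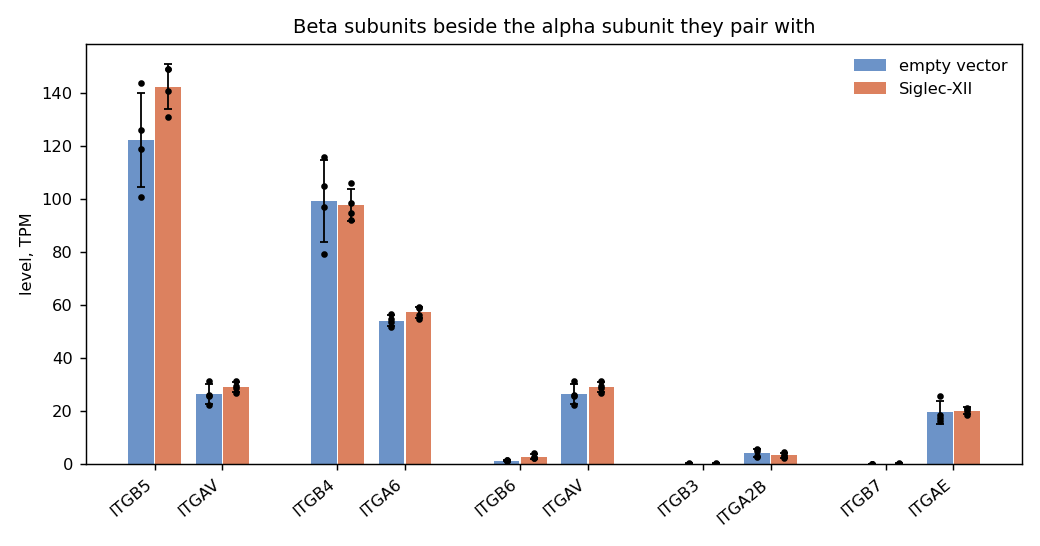
Mean level in TPM (bars), SD (error bars) and the 4 samples of each group (points) for beta subunits beside an alpha subunit they pair with, empty vector in blue and Siglec-XII in orange. ITGB5 and ITGB4 stand above their alpha partners, while ITGB6, ITGB3 and ITGB7 stand far below theirs.

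All 13 focal adhesion genes passed the filter, from paxillin (PXN, a scaffold, 250 TPM) to kindlin-1 (FERMT1, 17.1 TPM). The pseudokinase ILK had a mean of 178 TPM, focal adhesion kinase (PTK2) 119 TPM and zyxin (ZYX) 101 TPM. Kindlin-2 (FERMT2, 60.2 TPM), vinculin (VCL, 57.0 TPM), p130Cas (BCAR1, 54.4 TPM) and alpha-parvin (PARVA, 52.3 TPM) formed a close group whose ranges overlapped. LIMS1 (35.0 TPM), talin-1 (TLN1, 31.1 TPM), talin-2 (TLN2, 23.5 TPM) and beta-parvin (PARVB, 18.5 TPM) followed. Of the paralog pairs, FERMT2 stood at 3.17 to 4.02 times the TPM of FERMT1 over the 8 samples, PARVA at 2.29 to 3.34 times that of PARVB and TLN1 at 0.947 to 1.77 times that of TLN2. In the complex of ILK, PINCH and parvin, ILK was 4.53 to 5.78 times the TPM of LIMS1, and PARVA plus PARVB together reached 65.3 to 77 TPM. The ratio counts LIMS1 alone and leaves out the related gene LIMS2, at 8.26 to 10.4 TPM (mean 9.07 TPM).

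Some of these levels are uncertain by the way genes overlap. ILK shares 2375 exon bases with TAF10 on the opposite strand (207 TPM) and VCL shares 1109 with AP3M1 (57.3 TPM). Of the low integrins, ITGA1 (1.17 TPM) shares 499 exon bases with PELO on the same strand (11.1 TPM), ITGA9 (1.77 TPM) shares 763 with ITGA9-AS1 on the opposite strand (6.42 TPM) and ITGA7 (2.86 TPM) shares 119 with BLOC1S1 on the opposite strand (51.7 TPM). The 2 ZYX entries had identical values in every sample, and together they reached 174 to 230 TPM (mean 201 TPM). The 2 BCAR1 entries summed to 89.7 to 120 TPM (mean 104 TPM). By these sums ZYX would stand above ILK and PTK2 in mean level, and BCAR1 above the close group named before. The order given for these 2 genes thus holds for the single entries used. The related genes LIMS3 (1.22 TPM) and LIMS4 (0.526 TPM) could take or give reads of LIMS1, and how alike their sequences are was not examined. The TLN2 entry names a transcript of 249 nt, against 12023 nt for the longest annotated one. A TPM value depends on the transcript length used, so the order of TLN1 and TLN2 is uncertain beyond the overlap of their samples. Other entries also name a transcript much shorter than the longest, among them ITGA6 (970 against 5816 nt), ITGAE (672 against 3803 nt), ITGA3 (1817 against 5479 nt) and PARVB (1569 against 5394 nt). The ranks and ratios given above for these genes carry the same uncertainty.

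Whether integrin and focal adhesion genes differed between empty vector and Siglec-XII samples was asked by limma over all 15590 entries that passed the filter. At an adjusted p under 0.05, 0 of the 28 genes were called, where 0.648% of all entries were. The lowest adjusted p was 0.111, for ITGB6. At an unadjusted p of 0.05 or less, 6 of the 28 (21.4%) were higher with Siglec-XII, where 13.9% of all entries were, and 0 were lower, where 2.61% of all entries were. These 6 were ITGB6, LIMS1, PARVA, TLN1, ITGB5 and PTK2, which comprise 0 of 10 alpha subunits, 2 of 5 beta subunits and 4 of 13 focal adhesion genes. Groups without overlap were found for 2 of the 28 (7.14%), ITGB6 and LIMS1, both higher with Siglec-XII, against 10.8% of all entries in either direction and 9.17% in that one.

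Positive fold changes were the rule among the genes and among all entries alike. Of the 28 genes, 21 (75%) had a positive fold change, against 68.1% of all tested entries. Their median was 0.10 (alpha subunits 0.11, beta subunits 0.10, focal adhesion genes 0.10), against 0.07 over all entries, and 18 of the 28 lay above 0.07. Over protein-coding genes the fold change was larger for longer transcripts, from a median of -0.15 for 36 genes whose longest transcript was under 500 nt to 0.09 for 5758 genes of 4000 nt or more. Of the 28 genes, 24 belong to that longest class. With this trend removed, the median was 0.02 for the 28 genes and 0.00 for all entries, 2 genes were higher at an unadjusted p of 0.05 or less (ITGB6 and LIMS1; 6.25% of all entries) and 1 was lower (PARVB; 6.19%). With samples scaled to equal upper quartiles, 3 genes were higher (ITGB6, LIMS1 and PARVA; 7.2% of all entries) and 1 was lower (PARVB; 5.68%). After quantile normalization 2 genes were higher (7.02% of all entries) and 1 lower (5.63%). The split of 6 higher and 0 lower on the deposited scale was therefore smaller under each of these scalings, and 0 of the genes were called at an adjusted p under 0.05 in any of them, where 0.487%, 0.526% and 0.552% of all entries were.

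The intervals limit how large a difference between these samples on the log2(TPM + 1) scale could have gone unseen. They rest on a spread that may be technical, so they do not bound a difference between other cultures. The 95% interval of the fold change lay within ±1 for 27 of the 28 genes and within ±0.5 for 21, and its half-width ran from 0.11 to 0.49. ITGB6 was the gene whose interval reached past 1. For genes near 1 TPM the scale understates the change, and the fold change of ITGB6 was 0.68 as reported and 0.97 with a pseudocount of 0.1.

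**Figure D3:**
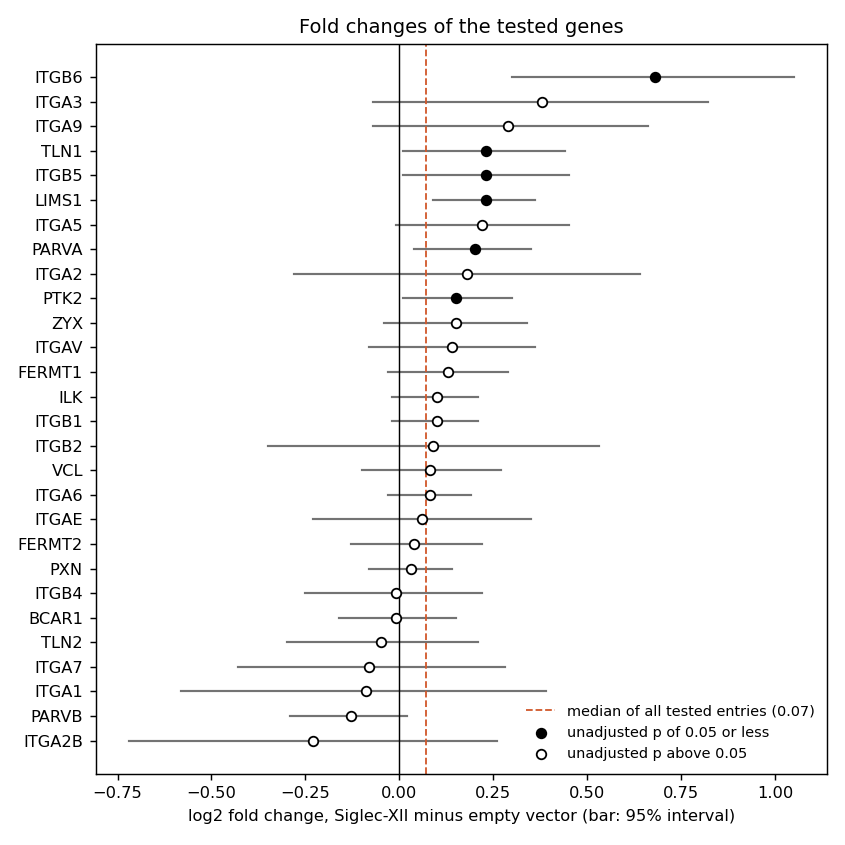
Fold change (log2(TPM + 1), Siglec-XII minus empty vector) of the 28 genes that passed the filter, with 95% intervals. Filled points mark the 6 genes with an unadjusted p of 0.05 or less, all to the right of 0, and the dashed line marks the median of all tested entries at 0.07, with 18 genes above it.

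ITGB6 had the largest fold change of the 28 genes. This epithelial beta subunit forms with ITGAV a receptor for fibronectin and for the latent form of TGF-beta. The gene (ENSG00000115221) lies on chromosome 2, minus strand, at 160956178 to 161056824 (GRCh37), and its promoter is printed above. Its level was 1.17, 1.64, 1.26 and 1.44 TPM in empty vector replicates 1 to 4 and 4.22, 2.34, 2.33 and 2.54 TPM in Siglec-XII replicates 1 to 4. Every Siglec-XII sample lay above every empty vector sample, and replicate 1 of Siglec-XII stood well above the other 3. The means were 1.38 ± 0.209 and 2.86 ± 0.912 TPM (SD, n = 4). The fold change was 0.68 ± 0.17 (SE; 95% interval 0.30 to 1.05; limma unadjusted p = 0.00276, adjusted p = 0.111), and its adjusted p was 0.0949 to 0.286 over 19 alternatives. Relative to ITGAV, ITGB6 was 0.0521 ± 0.00315 of its TPM in empty vector samples and 0.0983 ± 0.0304 in Siglec-XII samples (SD, n = 4 each). It remained a minor beta subunit, at 0.301% ± 0.0348 of the summed beta subunit TPM in empty vector samples and 0.579% ± 0.182 in Siglec-XII samples (SD, n = 4 each).

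LIMS1 was the other gene without overlap. It encodes PINCH, the LIM-domain adaptor that links ILK to further partners (chromosome 2, plus strand, 109150127 to 109303702 in GRCh37; ENSG00000169756). Empty vector replicates 1 to 4 held 29.8, 32.3, 33.9 and 32.9 TPM and Siglec-XII replicates 1 to 4 held 40.1, 38.3, 37.4 and 35.5 TPM. The gap between the groups was narrow, from 33.9 to 35.5 TPM. The fold change was 0.23 ± 0.06 (SE; 95% interval 0.09 to 0.36; limma unadjusted p = 0.00406, adjusted p = 0.127), with an adjusted p of 0.101 to 0.333 over 20 alternatives. Its partner ILK had a fold change of 0.10 ± 0.05 (SE; limma adjusted p = 0.375), so that the ratio of ILK to LIMS1 was 5.35 ± 0.319 in empty vector samples and 4.88 ± 0.390 in Siglec-XII samples (SD, n = 4 each), with overlap.

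Among the parvins, which join ILK to actin, the 2 paralogs had fold changes of opposite sign. PARVA (chromosome 11, plus strand, 12399110 to 12556903 in GRCh37) stood at 46.9, 56.1, 45.4 and 46.4 TPM in empty vector replicates 1 to 4 and at 56.6, 54.9, 54.5 and 57.3 TPM in Siglec-XII replicates 1 to 4. Only empty vector replicate 2 lay among the Siglec-XII samples. The fold change of PARVA was 0.20 ± 0.07 (SE; 95% interval 0.04 to 0.35; limma unadjusted p = 0.0174, adjusted p = 0.210). PARVB had 19.9, 18.3, 19.9 and 19.6 TPM in empty vector replicates 1 to 4 and 17.0, 17.5, 16.3 and 19.6 TPM in Siglec-XII replicates 1 to 4. Siglec-XII replicate 4 was at the empty vector level and the other 3 were below it, with a fold change of -0.13 ± 0.07 (SE; 95% interval -0.29 to 0.02; limma adjusted p = 0.373). The ratio of PARVA to PARVB was 2.36, 3.06, 2.29 and 2.37 in empty vector replicates 1 to 4 and 3.32, 3.13, 3.34 and 2.92 in Siglec-XII replicates 1 to 4, and the groups overlapped through empty vector replicate 2 alone.

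TLN1, the talin that links integrin tails to actin in most cells, stood at 25.1, 29.7, 29.9 and 29.3 TPM in empty vector replicates 1 to 4 and at 38.9, 34.0, 28.5 and 33.6 TPM in Siglec-XII replicates 1 to 4. Siglec-XII replicate 3 lay among the empty vector samples, and empty vector replicate 1 lay below all others. The fold change was 0.23 ± 0.10 (SE; 95% interval 0.01 to 0.44; limma unadjusted p = 0.0386, adjusted p = 0.276). TLN2, the second talin, had a fold change of -0.05 ± 0.11 (SE; 95% interval -0.30 to 0.21; limma adjusted p = 0.874). The ratio of TLN1 to TLN2 overlapped between the groups, at 0.947 to 1.40 with the empty vector and 1.22 to 1.77 with Siglec-XII.

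ITGB5 held 101, 144, 126 and 119 TPM in empty vector replicates 1 to 4 and 131, 141, 149 and 149 TPM in Siglec-XII replicates 1 to 4. Empty vector replicate 2 lay above 2 of the Siglec-XII samples, and the fold change was 0.23 ± 0.10 (SE; 95% interval 0.01 to 0.45; limma unadjusted p = 0.0405, adjusted p = 0.282). PTK2, the tyrosine kinase recruited to integrin adhesions, held 103, 123, 111 and 113 TPM in empty vector replicates 1 to 4 and 121, 116, 135 and 129 TPM in Siglec-XII replicates 1 to 4. Here too empty vector replicate 2 lay above 2 of the Siglec-XII samples, and the fold change was 0.15 ± 0.06 (SE; 95% interval 0.01 to 0.30; limma unadjusted p = 0.0428, adjusted p = 0.287).

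**Figure D4:**
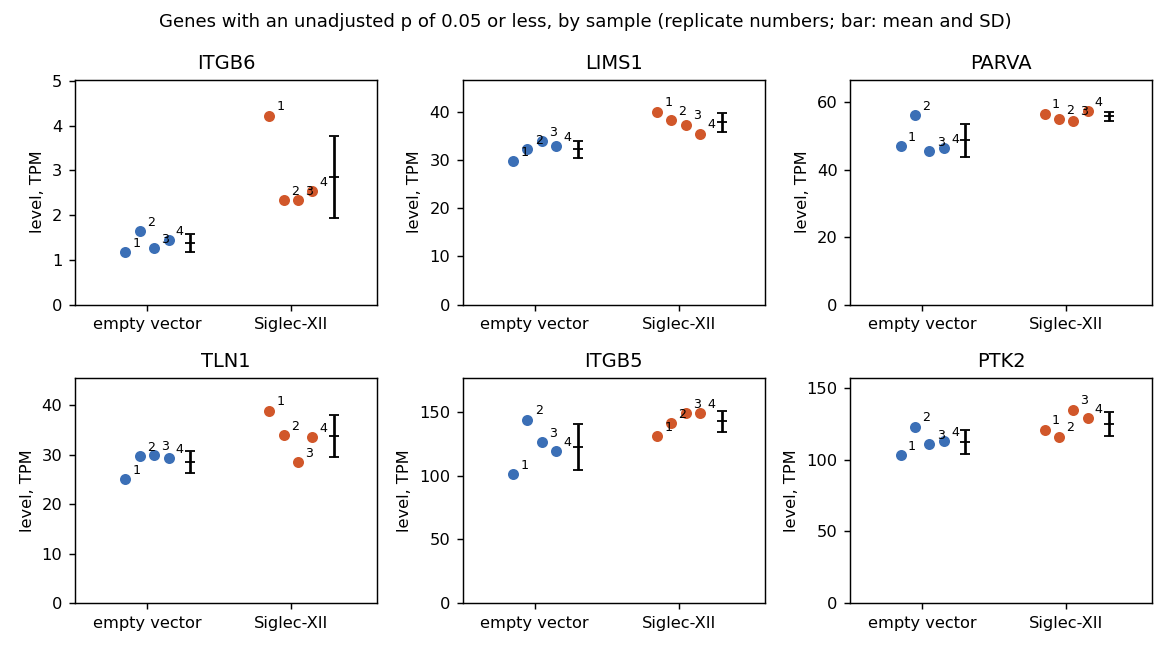
Level in TPM of the 6 genes with an unadjusted p of 0.05 or less, by sample, with replicate numbers beside the points and bars for the mean and SD of 4 samples. Only ITGB6 and LIMS1 have no overlap between the groups, and empty vector replicate 2 lies among or above Siglec-XII samples for PARVA, ITGB5 and PTK2, and among them for TLN1 through Siglec-XII replicate 3.

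The remaining genes that passed the filter did not reach an unadjusted p of 0.05. The widest differences were those of ITGA3, at 13.3, 20.7, 11.6 and 10.8 TPM in empty vector replicates 1 to 4 and 18.1, 20.0, 13.6 and 21.3 TPM in Siglec-XII replicates 1 to 4 (fold change 0.38 ± 0.20, SE; 95% interval -0.07 to 0.82; limma adjusted p = 0.377), and of ITGA9, with a fold change of 0.29 ± 0.16 (SE; 95% interval -0.07 to 0.66; limma adjusted p = 0.399). For ITGA3, empty vector replicate 2 was among the highest of all samples, and Siglec-XII replicate 3 lay close to the other empty vector samples. On the negative side, ITGA2B had a fold change of -0.23 ± 0.22 (SE; 95% interval -0.72 to 0.26; limma adjusted p = 0.645). ITGB4 (-0.01), BCAR1 (-0.01), PXN (0.03) and FERMT2 (0.04) had the fold changes nearest to 0, and the 95% interval of PXN, -0.08 to 0.14, was among the narrowest. The remaining fold changes were 0.22 for ITGA5, 0.18 for ITGA2, 0.15 for ZYX, 0.14 for ITGAV, 0.13 for FERMT1, 0.09 for ITGB2, 0.08 for VCL, 0.06 for ITGAE, -0.08 for ITGA7 and -0.09 for ITGA1. Among the 11 genes under the filter, 0 had groups without overlap.

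One library bore on these counts more than any other. Empty vector replicate 2 was the highest of its group for 15 of the 28 genes (53.6%), where it was so for 34.9% of all tested entries, and its median deviation from the group mean was 0.11 for the 28 genes and 0.04 for all entries on the log2 scale. Siglec-XII replicate 1 was the highest of its group for 13 of the 28 (46.4%, against 27.6% of all entries). At the low end, empty vector replicate 1 was lowest for 13 and Siglec-XII replicate 3 for 14, and the matching shares of all entries were not taken. The median deviation of empty vector replicate 1 was -0.09 for the 28 genes and -0.05 for all entries. For Siglec-XII replicate 3 it was -0.04 and -0.01. Mitochondrially encoded genes took 8.49% of the TPM in empty vector replicate 2, within the range of 7.92% to 11.2% in its group, and 6.67% to 9.97% with Siglec-XII.

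Without empty vector replicate 2, 15 of the 28 genes were higher at an unadjusted p of 0.05 or less, where 16.7% of all entries were, and 0 were lower, where 2.72% were. They were the 6 genes above and ITGA2, ITGA3, ITGA5, ITGAV, ITGB1, FERMT2, ILK, VCL and ZYX. The fold change became 0.40 for ITGA2, 0.56 for ITGA3, 0.23 for ITGAV, 0.24 for ZYX, 0.17 for VCL and 0.12 for FERMT2 in that fit. In the same fit PARVA was called, with a fold change of 0.27 and a limma adjusted p of 0.0438, where 1.02% of all entries were called. The median fold change was then 0.15 for the 28 genes and 0.08 for all entries. Leaving out empty vector replicate 1 or 3 instead lowered the count of 6 to 3 in each case, in either direction. Calls over the whole table at an adjusted p under 0.05 fell as well, from 101 to 56 and 49. The share of all entries at the unadjusted limit was not taken for these fits. Replicate 2 was picked out for being high in these same genes, and leaving it out lowers their empty vector mean. The larger count and the call of PARVA are thus no separate support for a difference. The same limit applies to the further adhesion-complex genes below, whose median deviation in that sample was 0.09. No batch is given in the labels, and what sets empty vector replicate 2 apart was not tested.

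**Figure D5:**
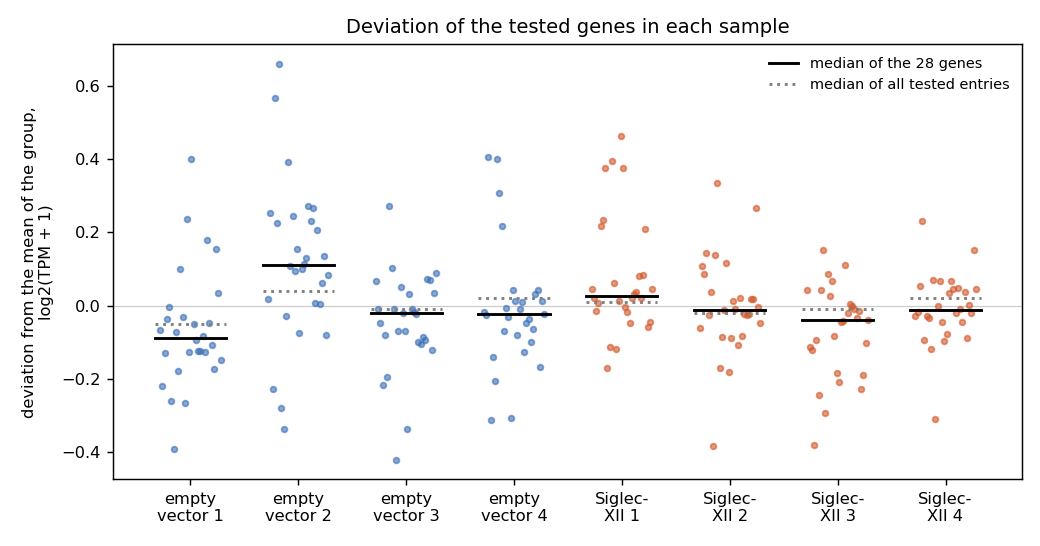
Deviation of each of the 28 genes from the mean of its own group, on the log2(TPM + 1) scale, by sample (points), with the median of the 28 genes (black lines) and of all tested entries (dotted lines). Empty vector replicate 2 has the highest median of the genes, 0.11, and empty vector replicate 1 the lowest, -0.09.

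Other genes of the pathway were read from 2 lists. Of 92 further adhesion-complex genes, 83 passed the filter and 0 were called at an adjusted p under 0.05. At an unadjusted p of 0.05 or less, 29 (34.9%) were higher and 0 lower, against the 13.9% and 2.61% of all entries given above, and their median fold change was 0.10. With equal upper quartiles these counts were 14 higher (7.2% of all entries) and 1 lower (5.68%), and with the length trend removed 13 higher (6.25%) and 2 lower (6.19%). Without empty vector replicate 2 they were 38 higher (16.7% of all entries) and 0 lower (2.72%), and 3 were called (1.02%). Groups did not overlap for 15 of the 83 genes, all higher with Siglec-XII, against 9.17% of all entries. The 5 with the smallest p were SORBS3 (vinexin, a vinculin-binding adaptor), TNS3 (tensin-3), VASP (an actin polymerization factor that binds zyxin), PLEC (plectin, which ties ITGB4 to intermediate filaments) and CRKL (an adaptor that binds p130Cas). SORBS3 ran from 92.3 to 99.5 TPM with the empty vector and from 108 to 121 TPM with Siglec-XII, a fold change of 0.24 ± 0.05 (SE; limma adjusted p = 0.0860). TNS3 ran from 47.3 to 53.7 and from 57.6 to 63.3 TPM, a fold change of 0.24 ± 0.05 (SE; limma adjusted p = 0.0978). These 5 genes were among the 15 without overlap, with fold changes of 0.22 for VASP, 0.28 for PLEC and 0.21 for CRKL (limma adjusted p = 0.125, 0.142 and 0.143).

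Among 34 genes for integrin ligands, 25 passed the filter and 0 were called (0.648% of all entries). At an unadjusted p of 0.05 or less, 7 (28%) were higher and 1 was lower, where 13.9% and 2.61% of all entries were, and the median fold change was 0.14. With equal upper quartiles, 6 were higher (7.2% of all entries) and 1 lower (5.68%), 0 were called (0.526%) and the median was 0.08. With the length trend removed, 4 were higher (6.25% of all entries) and 2 lower (6.19%), 1 was called (NPNT; 0.487%) and the median was 0.03. Without empty vector replicate 2, 9 were higher (16.7%) and 1 lower (2.72%), 2 were called (1.02%) and the median was 0.20. FN1, the fibronectin bound by receptors with ITGA5 or ITGAV, stood at 9.04, 10.9, 11.9 and 10.1 TPM in empty vector replicates 1 to 4 and at 12.9, 14.3, 14.4 and 14.4 TPM in Siglec-XII replicates 1 to 4. Its groups did not overlap, and the fold change was 0.39 ± 0.09 (SE; limma adjusted p = 0.102). NPNT (nephronectin) went the other way, from 21.5 to 23.4 TPM with the empty vector to 17.4 to 19.5 TPM with Siglec-XII, a fold change of -0.26 ± 0.06 (SE; limma adjusted p = 0.104). Its best known receptor subunit, ITGA8, had a mean of 0.0300 TPM. SPP1 (osteopontin) had 1.22 to 1.75 TPM with the empty vector and 2.03 to 4.68 TPM with Siglec-XII (fold change 0.62 ± 0.19, SE; limma adjusted p = 0.172), and like ITGB6 it was highest in Siglec-XII replicate 1. The collagen chain COL1A1 (0.26, limma adjusted p = 0.149) and the matrix protein CCN1 (0.28, limma adjusted p = 0.156) overlapped between the groups.

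As rounded here, summed levels differed between the groups without overlap for 2 of the 5 marker lists, both higher with Siglec-XII. The summed TPM of the 9 general epithelial markers was 8600 to 9590 with the empty vector and 10200 to 10600 with Siglec-XII, and that of the 15 colon markers was 164 to 187 and 191 to 216. Few genes made up these sums, mostly KRT8 (3630 to 4770 TPM over all samples) and KRT18 (2730 to 3620 TPM) in the epithelial list and CDX1 and CDX2 in the colon list, and no test was run on either list. The sums of the 18 trophoblast-type markers (3480 to 3570 against 3390 to 3480 TPM), of the 11 fibroblast markers (99.3 to 118 against 112 to 123 TPM) and of the 11 leukocyte and platelet markers (3.63 to 5.12 against 3.96 to 6.48 TPM) touched or overlapped. The trophoblast-type sums met at the rounded value of 3480 TPM and otherwise ran lower with Siglec-XII, so whether they overlap is not settled. The part of these marker lists in the integrin and focal adhesion levels was not tested.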

How the data were processed

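RNA-seq libraries from 4 empty vector and 4 Siglec-XII samples were quantified by the authors with kallisto against hg19 (version 0.45.0 in the submitters' processing notes; the study's methods give another version). The labels name an rRNA-depleting stranded total RNA kit and the methods an mRNA kit. The authors deposited 1 table of log2(TPM + 1) per gene. Taken back from the log2 scale, each deposited column sums to 1000000, so read counts are unknown and the count test of the study's methods could not be run. Values near 0 are the least precise.

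The comparison used limma 3.58.1 (R 4.3.3; mean-variance trend, Benjamini-Hochberg adjustment over entries with at least 1 TPM in at least 4 samples, calls at an adjusted p under 0.05), after the code was tested on simulated data. SIGLEC12 was compared by an exact permutation test. GRCh37 positions and overlaps came from GENCODE, and 55485 of 63816 entries had a matching gene ID. CCN1 and CCN2 were matched by gene ID to older symbols. The genes and lists were chosen with earlier results of these data known, and the trophoblast-type list after its levels had been seen. By rule, genes described by sample were those past a threshold and the alpha and beta subunit with the highest mean, and of each pathway list the 5 smallest p values. PARVB, ITGA3 and FN1 were added for their values. Alternatives were a pseudocount of 0.1, other filters (no filter, a mean of 5 TPM), other scalings, removal of the length trend, small structured RNAs left out, other variance models, a replicate block, summed entries of a symbol and each sample left out in turn. Python 3.11.15, scipy 1.17.1 and matplotlib 3.10.9 were used. Some single-gene results of the pathway lists are not reported here.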

Additional observations from a re-analysis of the deposited data

Results flagged for a closer look

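Within groups of 4 samples, a sample was singled out when its gap to the nearest other sample was a larger share of the group's range than Dixon's 95% critical value for 4 samples allows. This was tested for 58 groups of 4 samples (the 28 genes that passed the filter and SIGLEC12, in both groups), of which chance alone would single out about 1 in 20, and 5 were found, 3 of them empty vector replicate 2. ITGA2 in empty vector replicate 2 had a log2(TPM + 1) of 3.40, with the nearest other sample at 2.55 (gap 0.929 of the range). FERMT2 in the same sample had 6.14, against 5.86 (0.840), and PARVA had 5.84, against 5.58 (0.855). ITGB6 in Siglec-XII replicate 1 had 2.38, against 1.82 (0.862). TLN1 in empty vector replicate 1 was low, at 4.71 against 4.92 (0.883). The causes were not tested.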

How the results depend on the processing

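Of the integrin and focal adhesion genes, 0 were called under each alternative but one, with 0 to 1 over the fits that left out a sample each. In either direction, the count at an unadjusted p of 0.05 or less was 6 as reported (16.5% of all entries). It was 3 after quantile normalization and 3 with the length trend removed, each 2 higher and 1 lower, with shares of all entries given above. It was 3 without the mean-variance trend and 3 to 15 with a sample left out. Of these last fits, the share of all entries was taken only for the one without empty vector replicate 2. Entries called over the whole table were 101 as reported, 51 with no filter, 25 without small structured RNAs, 54 without the mean-variance trend and 49 to 159 with a sample left out (159 without empty vector replicate 2). Of the other pathway genes, 1 (NPNT) was called after quantile normalization and 1 (again NPNT, adjusted p = 0.0387) with the length trend removed, and 0 to 5 with a sample left out (5 without empty vector replicate 2). The SIGLEC12 difference of 10.59 was 13.20 with a pseudocount of 0.1 and 10.57 to 10.62 with a sample left out, where the exact permutation p was 0.0571, the smallest possible for 3 against 4.

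Single genes kept their direction in most settings: 14 values turned sign across the whole-sample alternatives and 15 more with a sample left out, all with fold changes near 0. With array weights the values were 0.02 for BCAR1, 0.02 for ITGA1, 0.02 for ITGB4 and 0.00 for TLN2. Quantile normalization gave -0.02 for FERMT2 and -0.01 for ITGAE, equal upper quartiles gave -0.02 for FERMT2 and -0.03 for PXN, and leaving out mitochondrial and the 100 most abundant entries gave -0.01 for PXN. With the length trend removed, FERMT2 was -0.05, ITGA6 -0.01, ITGAE -0.01, PXN -0.05 and VCL -0.02. With a sample left out, BCAR1 ran from -0.04 to 0.05, ITGA1 from -0.23 to 0.04, ITGA7 from -0.19 to 0.02, ITGAE from -0.02 to 0.19, ITGB2 from -0.04 to 0.22, ITGB4 from -0.11 to 0.07 and TLN2 from -0.13 to 0.02. Samples sharing a replicate number did not deviate together (correlations of -0.074 to 0.059), so no pairing was seen. Such correlations cannot exclude a small effect of a shared preparation, and the labels do not state one. With the replicate block, 0 of the genes and 69 entries of the table were called at an adjusted p under 0.05. At an unadjusted p of 0.05 or less, 5 of the genes were higher. The share of all entries at that limit was not taken for this fit, so the 5 cannot be set beside it. The causes of these changes were not tested. The unknown read depth limits low genes such as ITGB6 and ITGA1 most.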
